A study of Homo sapiens with 11 samples.

Results

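The expression of 10 genes of SWI/SNF and ISWI chromatin remodelling complexes was followed after transfection of miR-99a, miR-100 or both into Reh, an ETV6-RUNX1-positive human cell line from a precursor B-cell leukaemia. The genes were chosen by symbol, out of 19775 genes measured: SMARCA5, SMARCD1, BAZ2A, BAZ1A, BAZ1B, ACTL6A, SMARCA4, SMARCC1, SMARCB1 and ARID1A. SMARCA5, SMARCD1 and BAZ2A were included as reported targets of the miR-99/100 family. The 10 genes were chosen with earlier results of these data known. In GRCh38.p14 the genes of the ISWI complexes lie on chromosome 4 at 143513702 to 143557486 (SMARCA5), chromosome 12 at 56595596 to 56638318 (BAZ2A), chromosome 14 at 34752731 to 34875360 (BAZ1A) and chromosome 7 at 73440406 to 73522293 (BAZ1B). Those of SWI/SNF lie on chromosome 3 at 179562926 to 179588407 (ACTL6A) and 47585269 to 47781893 (SMARCC1), chromosome 19 at 10961030 to 11062273 (SMARCA4), chromosome 12 at 50085342 to 50100707 (SMARCD1), chromosome 22 at 23786966 to 23838009 (SMARCB1) and chromosome 1 at 26696015 to 26782104 (ARID1A). All 10 were measured, each by its brightest probe set on average across the 11 arrays, and no filter removed any of them.

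The 11 arrays fell into 4 groups, all from Reh cells that stably express miR-125b after viral transduction. The miR-99a group (3 arrays) received 66 µM of precursor oligo, the miR-100 group (3 arrays) 66 µM, the combination (3 arrays) 33 µM of each oligo, and the control (2 arrays) 66 µM of a scrambled oligo, as the labels give the doses. Oligos were added again after 72 h, and cells were harvested 48 h after that. All groups come from 1 cell line, so the miR-125b background is shared by treated and control cells. The labels do not say that replicates were separate cultures, so the p-values measure the spread between arrays, which may be technical.

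Chromatin remodellers use ATP to move, evict or space nucleosomes. SWI/SNF (BAF) complexes open chromatin around one of a pair of related ATPases, SMARCA4 being one of them, while ISWI complexes often pair the ATPase SMARCA5 with a large BAZ-family partner and mostly space nucleosomes. A microRNA binds messenger RNAs mainly through its seed, and transcripts with matching sites tend to be repressed.

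The mature microRNAs are shown because miR-99a and miR-100 carry the same seed and were compared with each other, while miR-125b is the microRNA present in every group. In each mature sequence from RefSeq (GRCh38.p14), written 5′ to 3′, the capitals mark the seed, bases 2 to 8.
hsa-miR-99a-5p: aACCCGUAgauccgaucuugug
hsa-miR-100-5p: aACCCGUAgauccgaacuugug
hsa-miR-125b-5p: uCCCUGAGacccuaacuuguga
The first lies on chromosome 21 at 16539101 to 16539122 (plus strand) and the second on chromosome 11 at 122152275 to 122152296 (minus strand). Counted from 1 at the 5′ end, miR-99a-5p and miR-100-5p differ at 1 of 22 positions, U16A (the base of miR-99a first), outside the seed. The seed of miR-125b-5p is different.

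Array medians lay between 5.95 and 5.98 on the log2 scale, and correlations between arrays between 0.989 and 0.998. The B-lineage label was borne out by 7 of 8 measured markers with a mean above 8, DNTT being at 13.09, while VPREB1 was at 5.48. None of the 5 T-cell, 4 myeloid, 3 erythroid or 6 fibroblast and epithelial markers reached 8. The arrays numbered replicate 3 stood apart from replicates 1 and 2 in every treatment, with 29.3% of all genes differing between them, and the control has no array of that number. Differences from control are therefore given over all arrays, and also with the replicate number as a block or within replicates 1 and 2. Deviations from the group means of arrays with the same number correlated above 0.1 in 9 of 9 pairs of treated arrays and in 3 of 6 pairs with a control array. Such deviations sum to 0 within a group, so a shift of replicate 3 alone makes treated arrays numbered 1 or 2 correlate. Those of the 2 control arrays are equal and opposite. The counts therefore cannot show whether the number pairs arrays, and values with the block stand beside those without it.

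Against the scrambled control, ACTL6A had the most negative difference of the 10 genes with miR-99a and with both oligos, while with miR-100 that of SMARCA5 was slightly more negative (-0.11, against -0.10 for ACTL6A). That order rests on single arrays, since the SMARCA5 difference with miR-100 was -0.24 without miR-100 replicate 3 and -0.025 without miR-100 replicate 1. ACTL6A encodes the actin-like subunit BAF53A, which is shared by SWI/SNF, INO80 and TIP60 complexes. With both oligos its level was 0.78 of the control level (log2 difference -0.36 ± 0.07, SE, n = 3 against 2). SMARCA5 lay below control in replicates 1 and 2 of every treatment, BAZ2A lay slightly above, and the group means of SMARCA4, SMARCC1, SMARCB1, SMARCD1, BAZ1A, BAZ1B and ARID1A differed from control by at most 0.12 in either direction.

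In the fit over all arrays, 0 of the 10 genes passed an adjusted p of 0.05 (limma, Benjamini-Hochberg over all genes) in any of the 3 treatments, where the share of all genes that passed was 0% in each comparison. At an unadjusted p under 0.05 the counts were 2 of 10 with miR-99a (ACTL6A and BAZ2A), 0 with miR-100 and 1 with both (ACTL6A), against 1%, 1.54% and 3.66% of all genes. The median log2 difference of the 10 was 0.05 for miR-99a, 0.0037 for miR-100 and 0.00068 for the combination, beside -0.0062, -0.0081 and -0.0043 over all genes. With the replicate block, 2 of the 10 passed with both oligos, ACTL6A and SMARCA5, both downward, where 4.36% of all genes passed and 2.92% passed downward. With the block 0 of the 10 passed with miR-99a or miR-100 (0.0253% and 0.0354% of all genes), and 3 and 1 had an unadjusted p under 0.05 (10% and 12.7% of all genes). Arrays of a treatment did not overlap control for 3 of 10 genes with miR-99a, against 15.4% of all genes in either direction. These were ACTL6A (lower) and BAZ2A and SMARCB1 (higher). The count was 1 with miR-100 and 1 with both (ACTL6A, lower), against 13.4% and 20.5% of all genes in either direction. No gene of the 10 lay wholly above control in those treatments (7.18% and 9.11% of all genes). These 3 comparisons share the control arrays.

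**Figure D1:**
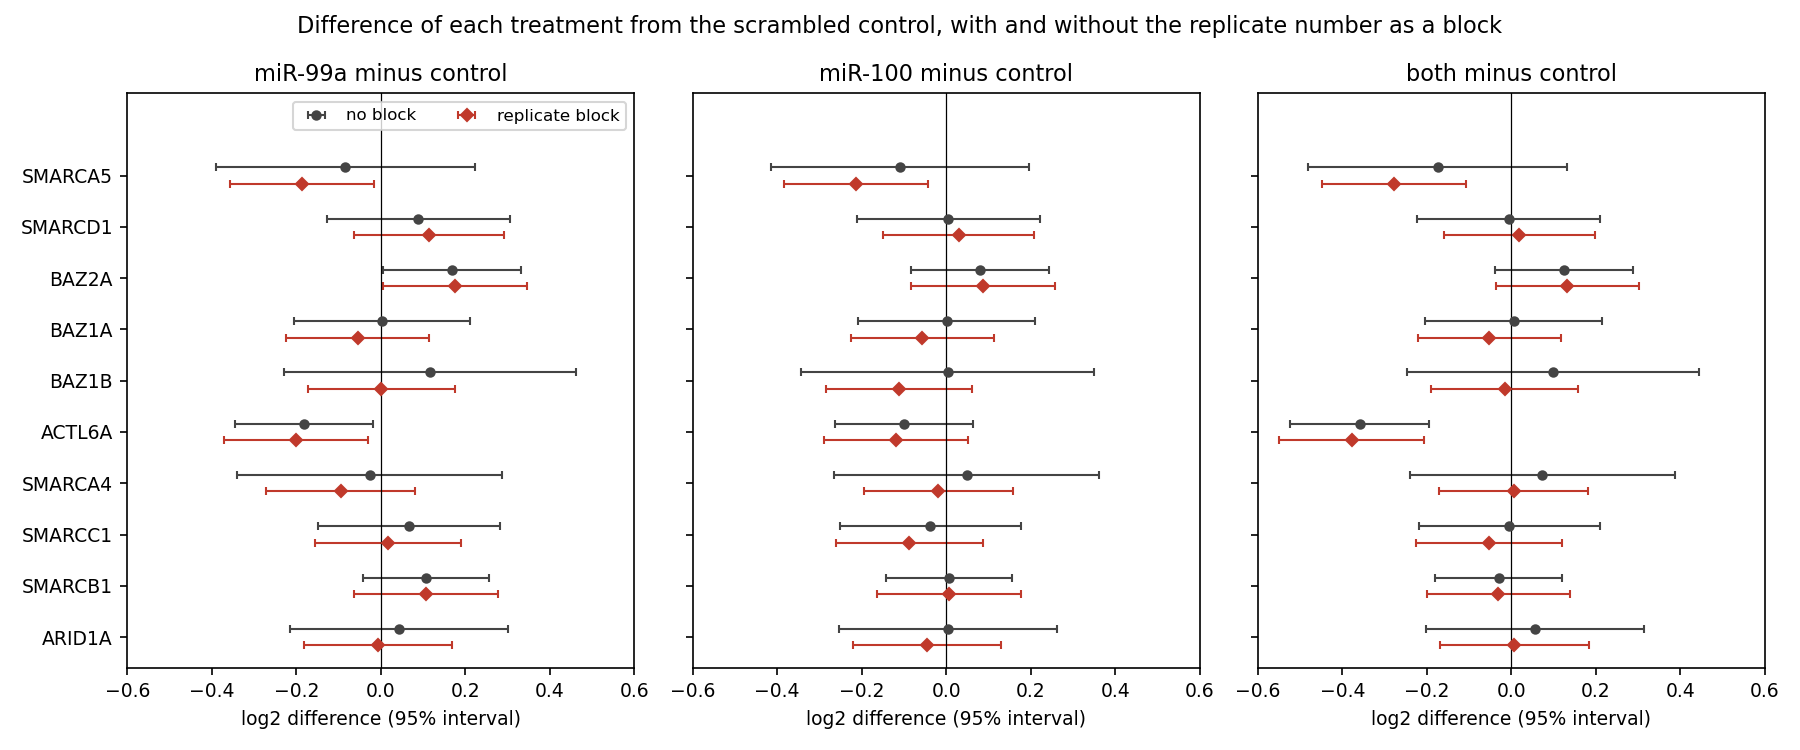
Log2 difference of each gene from the scrambled control (x axis, with 95% interval) for miR-99a, miR-100 and both oligos, fitted without a block (grey circles) and with the replicate number as a block (red diamonds). The intervals of ACTL6A with both oligos lie below 0 in both fits, and those of SMARCA5 lie below 0 only with the block.

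ACTL6A had log2 levels of 9.89, 9.87 and 9.83 in miR-99a replicates 1, 2 and 3. It had 9.98, 9.85 and 10.01 with miR-100 and 9.62, 9.67 and 9.78 with both oligos. In control it had 10.01 and 10.08. All 9 treated arrays lay below both control arrays, and the combination lay below every array of the single oligos. Treated arrays of 1 group lying wholly below control occurred in 7.88% of all genes for miR-99a, 6.19% for miR-100 and 11.4% for the combination. These shares rest on the same 2 control arrays, and the share with all 9 treated arrays below both was not counted. The single-oligo differences were -0.18 ± 0.07 with miR-99a and -0.10 ± 0.07 with miR-100 (SE). The 2457 genes with a mean level of 9 to 11, a range that includes ACTL6A, had a median of -0.06 in the miR-99a, -0.08 in the miR-100 and -0.09 in the combined treatment, or -0.078, -0.100 and -0.107 with the block.

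By p-value, ACTL6A ranked 3 of 19775 genes in the comparison of both oligos with control, although no gene passed there and its adjusted p was 0.9998 (limma). The genes were chosen with earlier results of these data known, so this rank is a description only. With the block its difference was -0.38 ± 0.09 with both oligos (adjusted p 0.00644), -0.20 ± 0.09 with miR-99a (0.401) and -0.12 ± 0.09 with miR-100 (0.62). It also passed with both oligos with replicate 3 as a term (adjusted p 0.0214) and within replicates 1 and 2 alone (-0.40 ± 0.08, adjusted p 0.0171). These fits called 2.24% and 1.47% of all genes. ACTL6A is read by 1 probe set on this array, so no second probe set bears on it. In bulk RNA, fewer cells of a kind and less RNA per cell cannot be told apart. Quantile normalization gave -0.27 and did not pass.

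**Figure D2:**
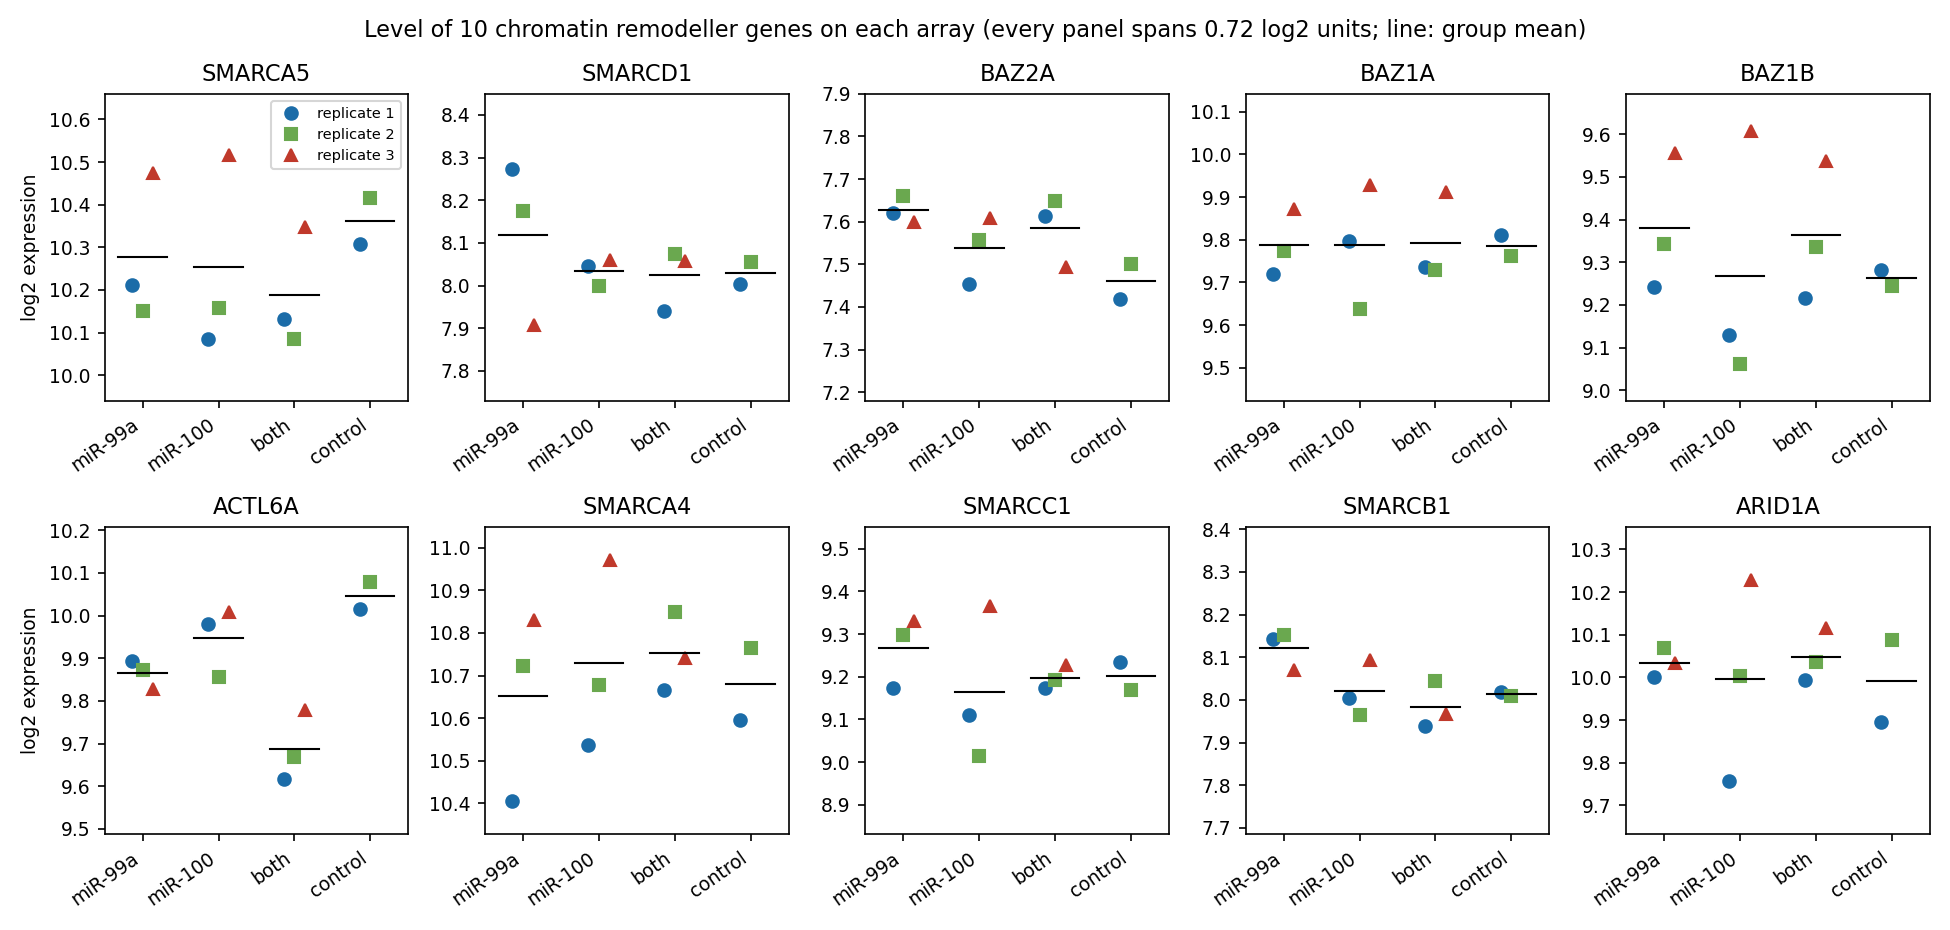
Log2 level of each of the 10 genes (y axis) on every array, by group, with the replicate number as symbol and colour and the group mean as a line; all panels span the same height. The ACTL6A arrays of the combination, 9.62 to 9.78, lie below those of control at 10.01 and 10.08, and the replicate 3 arrays of SMARCA5, BAZ1A and BAZ1B lie above the other arrays of their treatment.

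Among ISWI genes, SMARCA5, the SNF2H ATPase of most ISWI complexes, had 10.21, 10.15 and 10.47 in miR-99a replicates 1 to 3. It had 10.08, 10.16 and 10.52 with miR-100 and 10.13, 10.08 and 10.35 with both oligos. In control it had 10.31 and 10.42. Replicates 1 and 2 of every treatment lay below both control arrays, whereas 2 of the 3 replicate 3 arrays lay above both. Over all arrays the groups therefore overlapped, and the 95% interval with both oligos ran from -0.48 to 0.13.

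Taken by replicate number, SMARCA5 was lower than the control array of its number in 6 of 6 pairs, by -0.10 and -0.27 with miR-99a, -0.22 and -0.26 with miR-100 and -0.18 and -0.33 with both (replicates 1 and 2). ACTL6A was lower in 6 of 6 pairs as well, and 16.5% of all genes were. With the block SMARCA5 differed by -0.28 ± 0.09 (SE) with both oligos, at an adjusted p of 0.0451, by -0.21 with miR-100 (adjusted p 0.270) and by -0.19 with miR-99a (0.445). The genes with a mean level of 9 to 11, a range that includes SMARCA5, had medians of -0.107, -0.100 and -0.078 with the block in that order. The SMARCA5 call with both oligos ended with replicate 3 as a term (adjusted p 0.0642), within replicates 1 and 2 (-0.25 ± 0.08, 0.114) and when all 41091 probe sets were fitted in place of genes (0.0548). The other SMARCA5 probe sets gave -0.24 and -0.15 with the block, and all 3 lay below 0 in each treatment in either fit. Without a block, quantile normalization shrank the SMARCA5 differences to -0.092 for the combination, -0.029 for miR-100 and -0.022 for miR-99a (SE 0.16). On the deposited values these differences were -0.174, -0.110 and -0.084 in that order (SE 0.14).

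**Figure D3:**
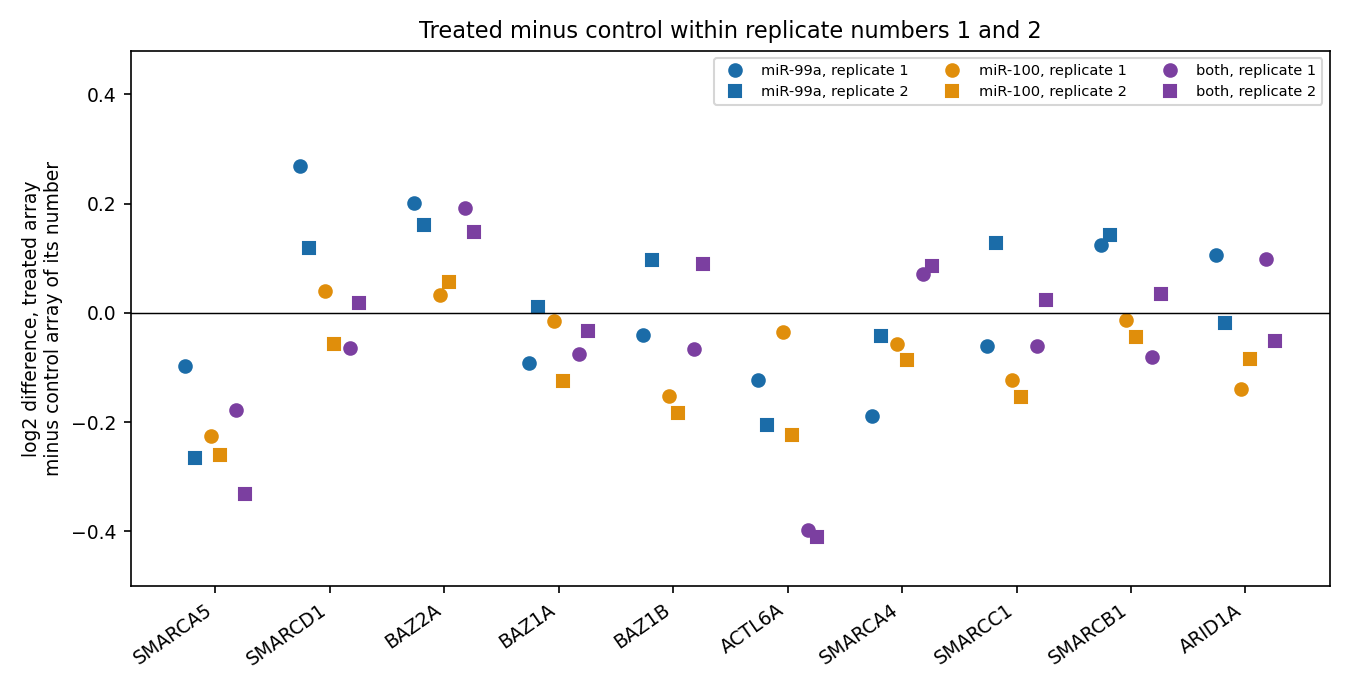
Log2 difference between a treated array and the control array of the same replicate number (y axis) for the 10 genes, with colour for the treatment and circles and squares for replicates 1 and 2. All 6 points of SMARCA5 and of ACTL6A lie below 0, and all 6 of BAZ2A lie above it.

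BAZ2A (TIP5), the partner of SMARCA5 in the nucleolar complex that silences ribosomal RNA genes, had 7.62, 7.66 and 7.60 with miR-99a. It had 7.45, 7.56 and 7.61 with miR-100 and 7.61, 7.65 and 7.49 with both oligos. In control it had 7.42 and 7.50. All 3 miR-99a arrays lay above both control arrays, as in 7.55% of all genes, and the groups overlapped with miR-100 and both. The log2 differences were 0.17 ± 0.07, 0.08 ± 0.07 and 0.12 ± 0.07 in that order, none past the threshold. By number BAZ2A was higher in 6 of 6 pairs, as were 8.61% of all genes. All 4 probe sets of BAZ2A lay above 0 in each treatment over all arrays. The mean of this reported target was thus above control in all 3 treatments, and the 95% interval with both oligos ran from -0.04 to 0.29.

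The other ISWI partners were closer to control. BAZ1A (ACF1), a subunit of the nucleosome-spacing ACF and CHRAC complexes, had 9.72, 9.77 and 9.87 with miR-99a, 9.80, 9.64 and 9.93 with miR-100, 9.74, 9.73 and 9.91 with both, and 9.81 and 9.76 in control. Its log2 differences were 0.0022, 0.0012 and 0.0056 (SE 0.09), and -0.06, -0.06 and -0.05 with the block. BAZ1B (WSTF), the partner of SMARCA5 at replication sites and in DNA repair, had 9.24, 9.34 and 9.56 with miR-99a, 9.13, 9.06 and 9.61 with miR-100, 9.22, 9.34 and 9.54 with both, and 9.28 and 9.25 in control. Its differences were 0.12, 0.0034 and 0.10 (SE 0.16), and 0.0012, -0.11 and -0.02 with the block. In both genes the replicate 3 arrays were the highest of each treatment and exceeded both control arrays.

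Among SWI/SNF genes, SMARCD1 (BAF60A), an accessory subunit that links the complex to transcription factors, had 8.27, 8.17 and 7.91 with miR-99a, 8.05, 7.998 and 8.06 with miR-100, 7.94, 8.07 and 8.06 with both, and 8.004 and 8.05 in control. The miR-99a arrays held both its highest and its lowest value, and the groups overlapped. Its differences were 0.09, 0.005 and -0.0058 (SE 0.10). With miR-99a the value was 0.19 ± 0.08 within replicates 1 and 2, that is without miR-99a replicate 3 (adjusted p 0.445), and 0.011 without miR-99a replicate 1. The 95% interval with both oligos ran from -0.22 to 0.21, which leaves falls of up to 0.22 inside it.

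SMARCA4 (BRG1), the ATPase, ranged from 10.41 to 10.83 with miR-99a, 10.54 to 10.97 with miR-100 and 10.67 to 10.85 with both, against 10.59 and 10.76 in control. Its differences of -0.03, 0.05 and 0.07 had an SE of 0.14, and its groups overlapped. SMARCC1 (BAF155), a scaffold of the core, ranged from 9.17 to 9.33 with miR-99a, 9.02 to 9.37 with miR-100 and 9.17 to 9.23 with both, against 9.23 and 9.17 in control. Its differences were 0.07, -0.04 and -0.0042 (SE 0.10). ARID1A, a subunit that defines canonical BAF complexes, ranged from 10.002 to 10.07 with miR-99a, 9.76 to 10.23 with miR-100 and 9.99 to 10.12 with both, against 9.90 and 10.09 in control. Its differences were 0.04, 0.004 and 0.06 (SE 0.12).

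SMARCB1 (SNF5), the core subunit that contacts the nucleosome, had 8.14, 8.15 and 8.07 with miR-99a, 8.01, 7.97 and 8.09 with miR-100, 7.94, 8.05 and 7.97 with both, and 8.02 and 8.01 in control. The miR-99a arrays lay above both control arrays, whereas the other treatments overlapped control. Its differences were 0.11, 0.0075 and -0.03 (SE 0.07). The core subunits and the ATPase thus gave no sign shared over the treatments: SMARCA4, SMARCC1 and SMARCB1 each had at least 1 treatment above and 1 below control over all arrays, and several of these signs turned under other settings.

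The oligos were also set against each other. The mature miR-99a and miR-100 differ at 1 base outside the seed, and the rest of the precursor oligos was not compared. The combination was set against the single oligos at equal total dose. Between miR-100 and miR-99a, 0 of 10 genes passed (0% of all genes), 0 had an unadjusted p under 0.05 (0.981% of all genes) and none of the 10 had groups without overlap (4.66% of all genes did). The miR-100 values were lower for 8 of the 10 genes and for 54.6% of all genes. The median of the 10 was -0.06, beside -0.0068 over all genes and -0.020 over genes with a mean level of 9 to 11. The largest differences were -0.11 for BAZ1B (SE 0.14), -0.10 for SMARCC1 (SE 0.09) and -0.10 for SMARCB1 (SE 0.06). Between the combination and the mean of the single oligos, 0 of 10 passed (0% of all genes) and ACTL6A had the 1 unadjusted p under 0.05 (2.28% of all genes), with -0.22 ± 0.06 (SE, 3 against 6 arrays, adjusted p 0.9998, and 0.317 with the block). All 3 ACTL6A arrays of the combination lay below all 6 of the single oligos, which held for 0.612% of all genes. SMARCA5 had -0.08 ± 0.11 and BAZ2A 0.0013 ± 0.06 in that comparison. With the block, too, 0 of 10 passed in either comparison (0.00506% of all genes in each). Within replicates 1 and 2, the miR-100 minus miR-99a differences of SMARCD1 (-0.20), BAZ1B (-0.20) and SMARCC1 (-0.17) had an unadjusted p under 0.05 (3 of 10, against 5.86% of all genes), with adjusted p-values of 0.764. The median of the 10 was then -0.145, beside -0.036 over all genes.

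Replicate 3 was set against replicates 1 and 2 of the 9 treated arrays, since it decides several of the values above. SMARCA5, BAZ1B, BAZ1A and SMARCA4 were higher in replicate 3 and passed (4 of 10 genes upward and 0 downward, against 17.1% and 12.2% of all genes, limma, adjusted p under 0.05). The 2457 genes with a mean level of 9 to 11, a range that includes these 4, had a median of 0.055 in this comparison, beside 0.00078 over all genes. BAZ1B rose by 0.35 ± 0.07 (adjusted p 4.72e-05), SMARCA5 by 0.31 ± 0.06 (0.000148), SMARCA4 by 0.20 ± 0.07 (0.0302) and BAZ1A by 0.17 ± 0.07 (0.0397). This fit takes the 9 arrays as independent. If arrays of 1 number were handled together, its p-values do not measure the spread between numbers. The arrays of SMARCA5 were 10.35 to 10.52 in replicate 3, against 10.08 to 10.21 in replicates 1 and 2, and those of BAZ1B were 9.54 to 9.61, against 9.06 to 9.34. For SMARCA5, BAZ1A and BAZ1B no replicate 3 array overlapped the others, as in 14.9% of all genes in that direction and 25.9% in either.

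The same 3 ISWI genes and SMARCC1 were higher in replicate 3 in each of the 3 treatments (4 of 10 genes, against 27.1% of all genes). SMARCA4 was higher by 0.27 with miR-99a and 0.36 with miR-100 and differed by -0.02 with both. ARID1A and SMARCC1 had 0.15 each (adjusted p 0.114 and 0.0959) and did not pass. ACTL6A (0.06), SMARCB1 (0.002), BAZ2A (-0.02) and SMARCD1 (-0.08) were nearer to 0 and did not pass. Leaving out miR-99a replicate 1, miR-100 replicate 3 or the combination's replicate 1 reduced the 4 calls to 2. What replicate 3 stands for is not given in the labels, and its part in the comparisons with control was not tested beyond the fits above.

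**Figure D4:**
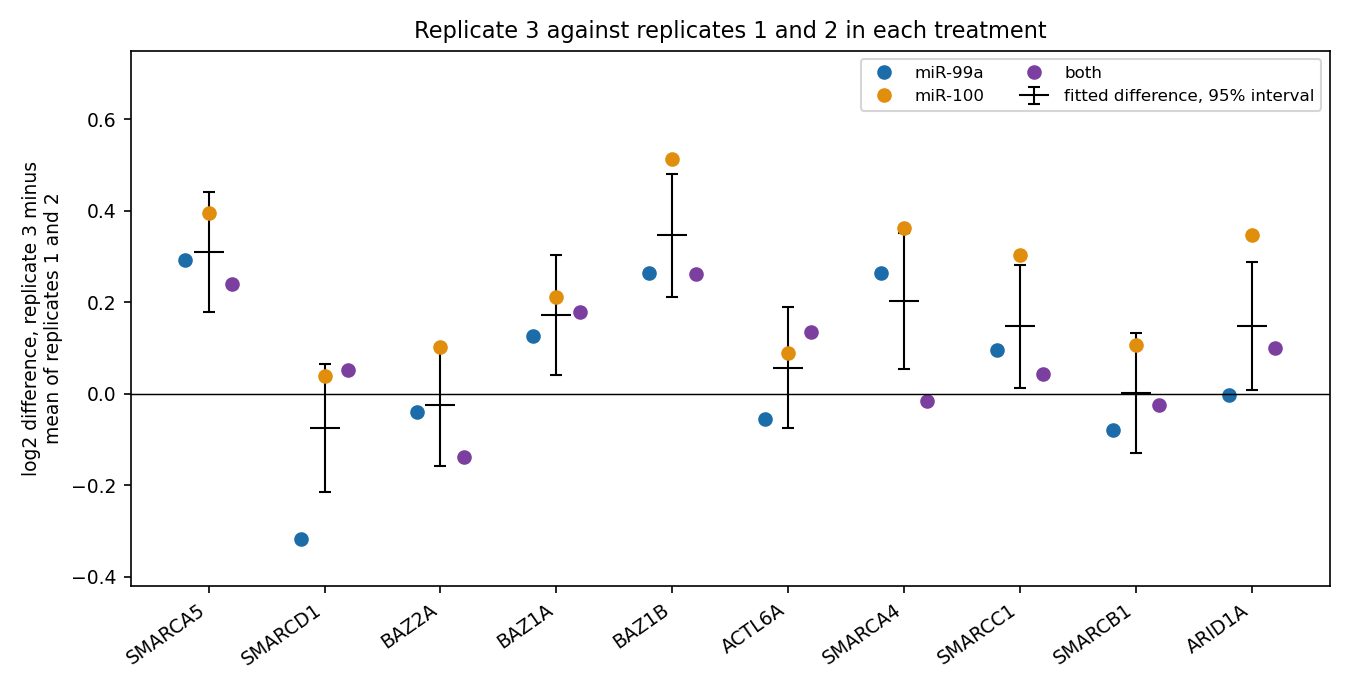
Log2 difference of replicate 3 from the mean of replicates 1 and 2 (y axis) for each gene and treatment (coloured points), with the fitted difference over the 3 treatments and its 95% interval in black. SMARCA5, BAZ1A and BAZ1B lie above 0 in all treatments, and the fitted values of ACTL6A, SMARCB1, BAZ2A and SMARCD1 have intervals that include 0.

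The 10 genes are read by 36 probe sets in all, from 1 for ACTL6A to 9 for SMARCA4. In a fit of all probe sets, 14 of the 36 were higher in replicate 3 and 0 lower, beside 14.8% of all probe sets higher. Probe sets of 1 gene are not independent, and that share covers probe sets of all levels. Every one of these 14 was among the 23 probe sets with a mean level of at least 7, and 0 of the 13 dimmer ones passed, with differences of -0.11 to 0.12. All 3 probe sets of SMARCA5 (0.31 to 0.38), both of BAZ1A (0.17 and 0.33), 2 of 4 of BAZ1B, 5 of 9 of SMARCA4 and 2 of 4 of SMARCC1 passed. The SMARCC1 probe set used for the gene was not among them. For differences from control the probe sets of a gene often disagreed in sign: with both oligos 2 of 9 SMARCA4 probe sets, 3 of 4 of SMARCC1 and 1 of 3 of SMARCB1 lay below 0.

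**Figure D5:**
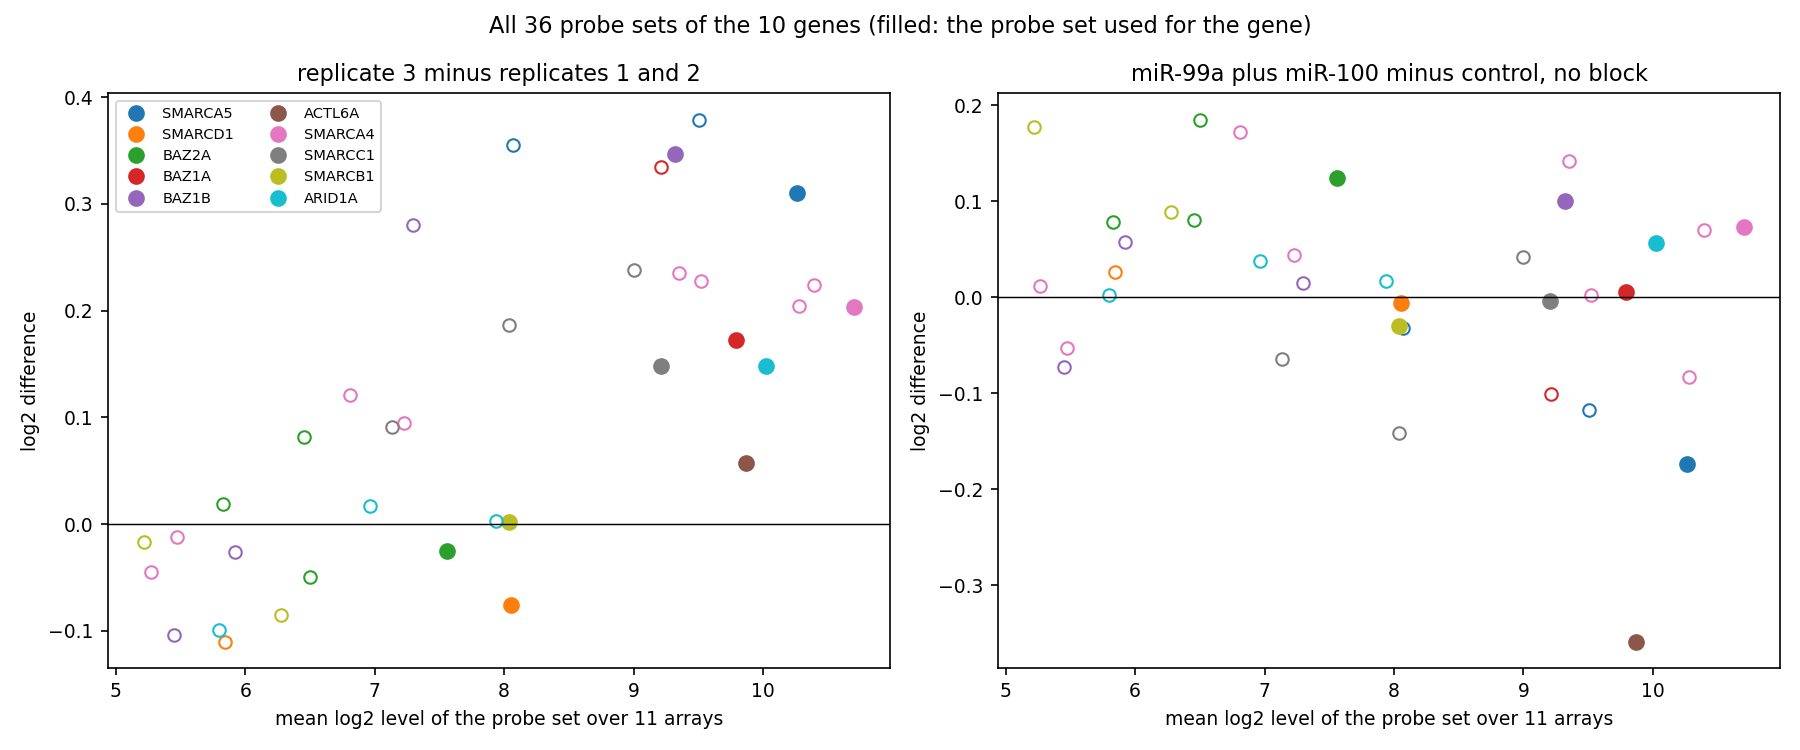
Log2 difference of all 36 probe sets of the 10 genes (y axis) against their mean log2 level over 11 arrays (x axis), for replicate 3 minus replicates 1 and 2 (left) and for both oligos minus control without a block (right). Filled points are the probe sets used for the genes. On the left, the 13 probe sets below a level of 7 lie between -0.11 and 0.12, and on the right ACTL6A lies lowest at -0.36.

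The wider set of remodeller genes, 92 genes outside the 10, all measured, gave 0 calls in the fit over all arrays in each comparison with control. Counts at an unadjusted p under 0.05 with both oligos were 0 of 24 other SWI/SNF subunits, 1 of 10 other ISWI subunits, 0 of 18 CHD and NuRD genes, 2 of 27 INO80, SRCAP and EP400 genes and 0 of 13 other SNF2 ATPases, against 3.66% of all genes. With the block these counts were 6 of 24, 4 of 10, 2 of 18, 8 of 27 and 8 of 13 in the same order of lists, against 17.9% of all genes. All 13 of the other SNF2 ATPases then lay below control, with a median of -0.23, where 50.5% of all genes lay below. With the block the median was -0.0014 over all genes and -0.107 over genes with a mean level of 9 to 11. Without the block 10 of the 13 and 51.8% of all genes lay below control, with medians of -0.08 and -0.0043. In the fit without the block, the nearest to a call with both oligos were POLE3, UCHL5 and EPC2. POLE3, a histone-fold subunit of CHRAC, had -0.30 ± 0.12, and UCHL5, the deubiquitinase of INO80, had -0.38 ± 0.15. EPC2, a scaffold of the TIP60 complex, had -0.31 ± 0.14. Other genes with the smallest p-values of their lists in that fit, with both oligos, included SMARCA2, the alternative SWI/SNF ATPase (-0.19 ± 0.10). They also included SMARCE1 (-0.13 ± 0.10), HMGXB4 (-0.13 ± 0.10), the deacetylase gene HDAC2 (-0.16 ± 0.09), and the SNF2 ATPases HELLS (-0.20 ± 0.10) and SMARCAD1 (-0.18 ± 0.10). The CHD ATPase gene CHD3 had 0.17 ± 0.08 with miR-99a, likewise without the block. With the block, 7 of the 92 passed with both oligos: EPC2, POLE3, TTF2, SHPRH, BTAF1 and UCHL5 downward and INO80E upward, named after their values were seen, where 2.92% of all genes passed downward and 1.45% upward. The count was 4 of 92 with replicate 3 as a term and 3 of 92 within replicates 1 and 2 (2.24% and 1.47% of all genes). Of the 7, POLE3 had 9.62, 9.89 and 9.92 with both oligos, against 10.10 and 10.11 in control, without overlap. EPC2 (7.83, 7.99 and 8.11, against 8.28 and 8.29) did not overlap control either. Nor did UCHL5 (9.25, 9.37 and 9.01, against 9.60 and 9.58), whereas TTF2, SHPRH, BTAF1 and INO80E did. Arrays of the combination lay wholly below control in 11.4% of all genes.

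Between replicate 3 and the others, 52 of the 92 passed, with directions that differed by list. The other SNF2 ATPases had 10 of 13 higher and 0 lower (median 0.39), among them BTAF1 (0.52), ATRX (0.54) and HLTF (0.43). The other ISWI subunits had 6 of 10 higher and 0 lower (median 0.23), with BPTF, the large subunit of NURF, at 0.54, BAZ2B at 0.36 and RSF1 at 0.32. Both directions occurred in the remaining lists. Other SWI/SNF subunits had 6 of 24 higher and 3 lower, with BRD9 at 0.37, PBRM1 at 0.36 and BCL7C at -0.46. CHD and NuRD genes had 7 of 18 higher and 2 lower, with CHD9, CHD4 and CHD6 at 0.38, 0.37 and 0.36. INO80, SRCAP and EP400 genes had 11 of 27 higher and 7 lower, with YEATS4 at -0.60, INO80E at -0.53 and ACTR6 at -0.56. Beside these counts, 17.1% of all genes were higher and 12.2% lower, with a median of 0.00078. Genes with a mean level of 9 to 11 had a median of 0.055.

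Over the 11 arrays, the levels most like that of SMARCA5 among 9887 other genes at or above the median level were those of HIF1A (Pearson r = 0.984), MFN1 (0.978) and CLPX (0.977). For SMARCD1 they were SZRD1 (0.924), CPSF7 (0.895) and CDCA4 (0.888), and for BAZ2A they were RUSC2 (0.889), PKM (0.876) and SLC67A1 (0.874). Among the 10 genes the closest pairs were BAZ1B with SMARCC1 (0.887) and with BAZ1A (0.869), and the most opposed were ACTL6A and BAZ2A (-0.527). All these points share the same 11 arrays, including the replicate 3 arrays that stand apart, so the values are descriptions only.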

How the data were processed

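RNA was labelled with biotin and read on 1-colour Affymetrix arrays, per the labels' protocols. The authors deposited log2 values for 54675 probe sets. How they were summarised, background-corrected and normalized is not given in the sources used here. No detection calls were used, and the number of arrays limits the precision.

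The 41091 probe sets annotated with a single gene were named through RefSeq (GRCh38.p14; 41037 matched), and the brightest probe set represented each of 19775 genes. A mean per group was fitted to all 11 arrays with limma 3.58.1 (lmFit, eBayes) in R 4.3.3, with p-values 2-sided and adjusted by Benjamini-Hochberg over all genes, and an adjusted p under 0.05 counted as a call. The fit without a block and the fit of replicate 3 were tested on simulated data with independent noise. The fits with the block, with replicate 3 as a term and within replicates 1 and 2 were not. Deviations from group means of arrays with the same replicate number correlated at 0.168 to 0.816 between treatments and at -0.152 to 0.438 with control. Alternatives were quantile normalization, a filter at the median level, the mean of all probe sets of a gene, the replicate block, replicate 3 as a term, replicates 1 and 2 alone, and leaving out each array. All 10 genes are named. From each wider list up to 3 called genes are named per comparison, or else the 2 with the smallest p against control, plus the 3 genes most like SMARCA5, SMARCD1 and BAZ2A. The genes and lists were chosen with earlier results of these data known.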

Additional observations from a re-analysis of the deposited data

How the results depend on the processing

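The 0 calls among the 10 genes in the 3 comparisons with control, between miR-100 and miR-99a and between the combination and single oligos stood under quantile normalization, the filter, the mean of all probe sets and all 11 fits without 1 array. With both oligos the count was 2 with the replicate block, 1 with replicate 3 as a term and 1 within replicates 1 and 2 alone, and the wider list gave 7, 4 and 3. The block changed no other call among the 10. The 4 calls of replicate 3 ranged from 2 to 4 without 1 array and those of the wider list from 41 to 53. With the mean of all probe sets SMARCA4 (0.14) lost its replicate 3 call and SMARCC1 (0.17) gained one, and under quantile normalization ARID1A (0.18) gained one. Without 1 array, SMARCA5 against control ranged from -0.18 to -0.020 with miR-99a, -0.24 to -0.025 with miR-100 and -0.25 to -0.12 with both. The cause was not tested. With 2 control arrays, small differences cannot be resolved.

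Under quantile normalization the sign turned for SMARCA4 (0.040) with miR-99a, SMARCC1 (0.033) with miR-100 and SMARCD1 (0.052), SMARCC1 (0.084) and SMARCB1 (0.026) with both oligos. The same setting turned it for BAZ1A (0.027) between miR-100 and miR-99a, SMARCC1 (0.012) between the combination and single oligos and SMARCB1 (-0.066) in replicate 3. With the mean of all probe sets the sign turned for BAZ1A (-0.011) and SMARCA4 (0.014) with miR-99a, BAZ1A (-0.059), BAZ1B (-0.036), SMARCA4 (-0.0048) and ARID1A (-0.025) with miR-100 and SMARCD1 (0.010), BAZ1A (-0.048) and SMARCB1 (0.079) with both oligos. The same setting turned it for SMARCA4 (-0.018) between miR-100 and miR-99a, BAZ1A (-0.012) and SMARCB1 (0.019) between the combination and single oligos and BAZ2A (0.0065) and SMARCB1 (-0.033) in replicate 3. With the replicate block, and equally with replicate 3 as a term, the sign turned for BAZ1A (-0.055) and ARID1A (-0.0070) with miR-99a, BAZ1A (-0.056), BAZ1B (-0.11), SMARCA4 (-0.019) and ARID1A (-0.045) with miR-100 and SMARCD1 (0.019), BAZ1A (-0.052) and BAZ1B (-0.016) with both oligos. Within replicates 1 and 2 alone the sign turned for BAZ1A (-0.040) with miR-99a, SMARCD1 (-0.0080), BAZ1A (-0.069), BAZ1B (-0.17), SMARCA4 (-0.071), SMARCB1 (-0.028) and ARID1A (-0.11) with miR-100 and BAZ1A (-0.054) with both oligos. The same setting turned it for SMARCC1 (0.034) between the combination and single oligos.

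With miR-99a the range without 1 array that included a turned sign was -0.053 to 0.14 for ARID1A, -0.040 to 0.037 for BAZ1A and -0.12 to 0.096 for SMARCA4. With miR-100 the range was -0.11 to 0.12 for ARID1A, -0.069 to 0.076 for BAZ1A, -0.17 to 0.11 for BAZ1B, -0.071 to 0.14 for SMARCA4, -0.028 to 0.035 for SMARCB1, -0.14 to 0.037 for SMARCC1 and -0.020 to 0.030 for SMARCD1. With both oligos the range was -0.039 to 0.15 for ARID1A, -0.054 to 0.037 for BAZ1A, -0.011 to 0.16 for SMARCA4, -0.037 to 0.028 for SMARCC1 and -0.031 to 0.036 for SMARCD1. Between miR-100 and miR-99a the range was -0.15 to 0.081 for ARID1A, -0.071 to 0.074 for BAZ1A, -0.047 to 0.17 for SMARCA4 and -0.16 to 0.072 for SMARCA5. Between the combination and single oligos the range was -0.026 to 0.091 for ARID1A, -0.056 to 0.039 for BAZ1A, -0.048 to 0.13 for BAZ1B, -0.030 to 0.047 for BAZ2A and -0.056 to 0.032 for SMARCC1. In replicate 3 the range was -0.089 to 0.031 for BAZ2A, -0.051 to 0.042 for SMARCB1 and -0.14 to 0.045 for SMARCD1. The ACTL6A difference from control stayed negative in every fit without 1 array, at -0.40 to -0.32 with both oligos.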
